A study of Caenorhabditis elegans with 2 samples.

Results

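The splicing factor genes described here are the protein-coding genes of the Ensembl WBcel235 annotation whose names begin with prp-, snr-, rsp-, mog-, uaf- or lsm-. There were 43 of them among 19985 protein-coding genes: 13 prp-, 7 snr-, 8 rsp-, 6 mog-, 2 uaf- and 7 lsm- genes. They were examined in a chromatin immunoprecipitation experiment followed by sequencing (ChIP-seq) on whole Caenorhabditis elegans. The worms carried wgIs628, an integrated fosmid transgene with ccch-3 fused to a TY1 EGFP 3xFLAG tag and with a working unc-119 gene, in an unc-119 (tm4063) background. They were young adults of 70 hours and of pooled sex, from cultures synchronised as L1 larvae starved after bleaching, and chromatin was recovered with an antibody against GFP. The labels give a single group with 2 biological replicates. No untagged worms are among the samples, and the nature of the control is not given. Recovery by the antibody alone is therefore not known here.

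The spliceosome removes introns from pre-mRNA and is built from small nuclear RNAs and proteins. Sm proteins form a ring around most of these RNAs, LSm proteins form a related ring on U6, U2AF and SR proteins help to choose splice sites, and ATP-dependent helicases rearrange the complex between steps. In C. elegans the mog genes take their name from masculinisation of the germ line, since hermaphrodites that lack them go on making sperm in place of oocytes. CCCH-3 belongs to the CCCH zinc finger proteins, a family with many RNA-binding members, and the experiment asked where on chromatin the tagged protein is recovered.

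The 4 deposited peak lists were read at these genes. The pooled list and the list of each replicate hold 30000 candidate regions each, many of which were never called bound, and the last list holds the 218 regions that passed a threshold on the irreproducible discovery rate, IDR, which scores how well the ranks hold up between replicates. A region was assigned to a gene when its summit lay between 1000 bp upstream and 200 bp downstream of the annotated start. Signal values are the authors' scores, on a scale not given in the sources used here, so they are compared by rank within a list, where rank 1 is the highest. The libraries' read depth is unknown from such lists. In whole worms, strong recovery in a few cells and weak recovery in many cannot be told apart.

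The splicing factor genes with an IDR-thresholded region in the window were mog-4, prp-19 and snr-1. These 3 of 43 genes (6.98%) stand beside 176 of 19985 protein-coding genes (0.881%). The same 3 genes, and no other member, had a region among the 218 highest of the replicate 1 list, where 0.696% of protein-coding genes had one. They were likewise the only members with one among the 218 highest of the replicate 2 list (0.881% of protein-coding genes), and 88 genes (0.44%) had one in both. The IDR threshold itself favours regions that rank high in both replicates, so these replicate counts are not separate from it. Within 250 bp of the start, upstream or downstream, 0 members had an IDR-thresholded region, beside 0.415% of all protein-coding genes. That narrower window leaves out the summits at the 3 genes, which lay farther upstream. An earlier analysis of these data had already shown the regions at all 3 genes, so the counts are a description and carry no test.

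The sequences at these 3 summits differed widely in composition, and the 101 bases shown lie on or next to the summit of each, free of annotated exons and written on the strand of the named gene. They were taken from the RefSeq copy of WBcel235, which has the coordinates of ce11. The mog-4 and snr-1 stretches are centred on the summit. The prp-19 stretch is shifted by 42 bp, and 49.5% of its bases are G or C. Capitals mark matches, on either strand, to any of 5 motifs of 6 bases, which an earlier analysis had picked from the 218 regions themselves and which are spelled out with the base composition further on. The mog-4 stretch is chrII:14561863-14561963 (minus strand), the prp-19 stretch chrIII:5172619-5172719 (minus strand) and the snr-1 stretch chrIV:17087507-17087607 (plus strand).
mog-4: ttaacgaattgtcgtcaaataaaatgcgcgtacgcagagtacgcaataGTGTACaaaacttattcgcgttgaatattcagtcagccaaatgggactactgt
prp-19: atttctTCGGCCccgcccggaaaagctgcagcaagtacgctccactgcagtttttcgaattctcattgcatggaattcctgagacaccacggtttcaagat
snr-1: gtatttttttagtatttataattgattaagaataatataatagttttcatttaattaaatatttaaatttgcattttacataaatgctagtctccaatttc
The mog-4 stretch held GTACAC as its reverse complement, the prp-19 stretch held GGCCGA as its reverse complement, and the snr-1 stretch held none of the 5 motifs.

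The gene mog-4 encodes a putative ATP-dependent RNA helicase of the spliceosome, the counterpart of Prp2 in budding yeast. It lies on chromosome II from 14552504 to 14561599 on the minus strand (WBGene00003392). Its region had a signal value of 228 in the pooled list (rank 8), 122 in the replicate 1 list (rank 14) and 105 in the replicate 2 list (rank 21). All 3 ranks are among the highest of 30000, and no other member was this high in the pooled list. In the replicate 1 list, 12 of the regions ranked above it were mitochondrial, and among nuclear regions it ranked 2.

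The pooled region at mog-4 ran from 14561816 to 14561920 and was 105 bp wide, where the median width in that list is 400 bp. Its summit lay 314 bp upstream of the start in the pooled and replicate 2 lists and 269 bp upstream in the replicate 1 list. No other gene searched, small RNA genes and pseudogenes included, had this summit in its window. The nearest gene upstream was a pseudogene that ended 615 bp away, and the next protein-coding gene, madf-5, lay 12016 bp away on the other strand. Of the 3 members in the IDR list, mog-4 is the one whose own start was the nearest protein-coding start.

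The gene prp-19 encodes pre-mRNA-processing factor 19, which in yeast and human is the ubiquitin ligase at the core of a complex that joins the spliceosome as it is activated. It lies on chromosome III from 5169933 to 5172045 on the minus strand (WBGene00020423). Its region had a signal value of 208 in the pooled list (rank 12), 78.3 in the replicate 1 list (rank 47) and 131 in the replicate 2 list (rank 5). The rank was thus higher in replicate 2 than in replicate 1, the reverse of the order at mog-4.

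The pooled region at prp-19 ran from 5172511 to 5172910, with its summit 666 bp upstream of the prp-19 start. This summit lay only 9 bp upstream of the start of K10D2.5, a gene on the other strand, and 728 bp upstream of emb-1, on the same strand as K10D2.5. The replicate 2 summit was at the same base, and the replicate 1 summit lay 11 bp away. The region is therefore shared by 3 genes, and prp-19 is not the nearest.

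The gene snr-1 encodes Sm D3, a protein of the Sm ring. It lies on chromosome IV from 17088049 to 17088946 on the plus strand (WBGene00004914). Its region had a signal value of 144 in the pooled list (rank 64), 60.5 in the replicate 1 list (rank 122) and 87.9 in the replicate 2 list (rank 50). It was the lowest of the 3 genes in each list, and still far above the lowest IDR-thresholded region, at 94.4.

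The pooled region at snr-1 ran from 17087357 to 17087756, with its summit 492 bp upstream of snr-1 and 119 bp upstream of snx-13, a sorting nexin gene that points the other way. The gap between the annotated starts of the 2 genes was 611 bp. Within 50 bp of the summit, 15.8% of bases were G or C, the lowest of all 218 IDR-thresholded regions, where the next lowest was 19.8%. The corresponding value was 39.6% at mog-4 and 47.5% at prp-19, against a mean of 44.5% (SD 9.55) over the 218 regions and 34.7% (SD 8.76) over all 30000 pooled regions.

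**Figure D1:**
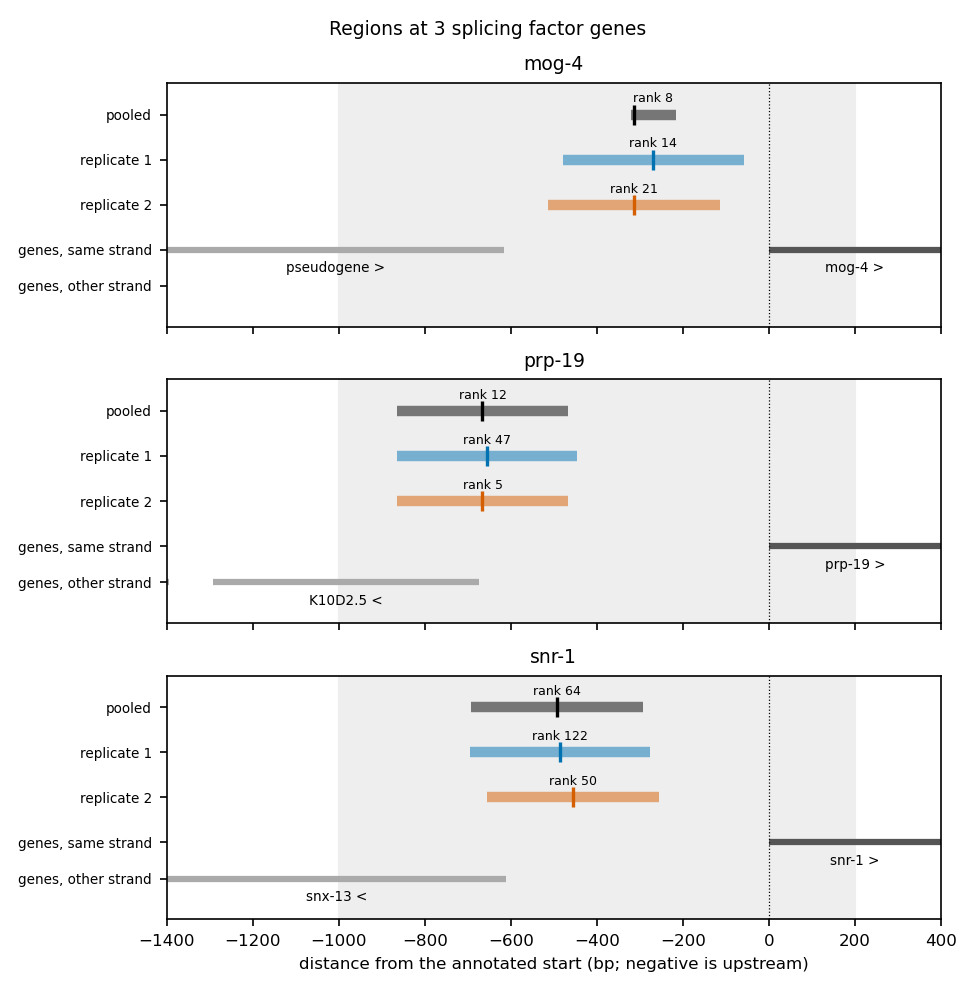
Candidate regions at mog-4, prp-19 and snr-1 by distance from the annotated start of each gene (bp, negative is upstream), with bars for regions, ticks for summits, grey shading for the window and the rank in each list printed above. The regions of the 3 lists overlap at each gene, and at prp-19 and snr-1 the summits lie closer to the start of a gene on the other strand.

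The regions at the 3 genes were in the same place in both replicates. Replicate summits lay at most 45 bp from the pooled summit at these genes. The IDR threshold favours regions that recur in both replicates, so this agreement is in part set by how the 3 genes were picked out. The q-value of all 3 regions was 0.00488 in the pooled list, 0.0102 in the replicate 2 list and 0.125 in the replicate 1 list, in each case the lowest of the list. No region of the replicate 1 list had a q-value at or under 0.05.

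Below these 3 genes came a wide gap. The next member was lsm-8, a gene of the LSm ring that binds U6 in the nucleus, at rank 1118 of the pooled list with a signal value of 64.9 and a q-value of 0.568. The lowest IDR-thresholded region, at 94.4, lay between snr-1 and lsm-8, and no member was near it.

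**Figure D2:**
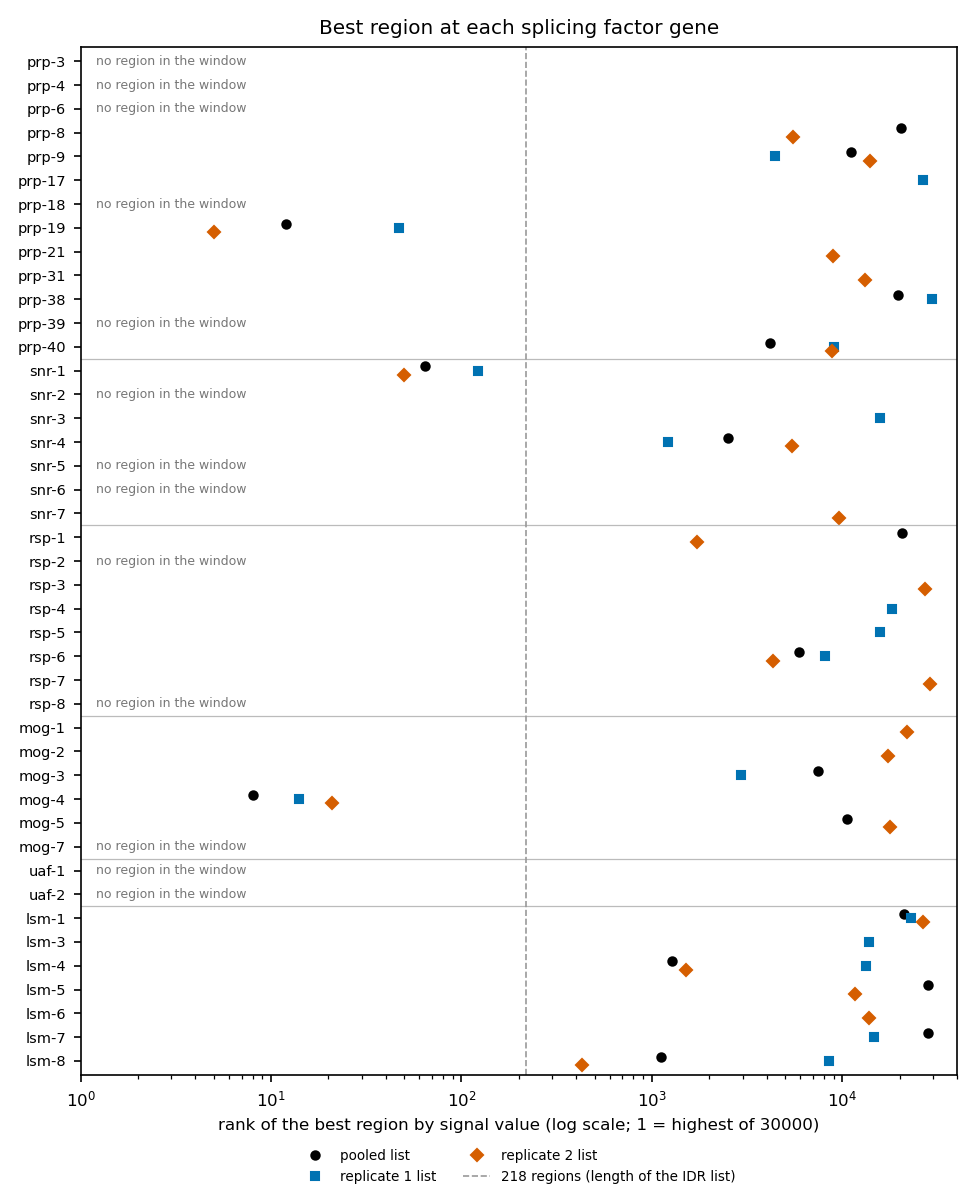
Rank of the best region at each of the 43 genes, grouped by name family, in the pooled list (circles), the replicate 1 list (squares) and the replicate 2 list (diamonds) on a log axis. Only prp-19, snr-1 and mog-4 lie left of the dashed line at 218 regions, and 13 genes had no region in any list.

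For candidate regions, the shares of splicing factor genes and of all protein-coding genes were closer together than in the IDR list. In the pooled list 17 of 43 members had a candidate region (39.5%), beside 34.9% of all protein-coding genes. These 17, like each count of members for the same window below, include mog-4, prp-19 and snr-1, whose regions were known beforehand. The order turned within 250 bp of the start (9.3%, beside 16.3%) and with a summit counted only for the nearest start (23.3%, beside 29.6%), and the shares were 55.8% and 55.9% from 2000 bp upstream to 500 bp downstream. In the replicate 1 list 18 had one (41.9%, beside 34%), and in the replicate 2 list 22 did (51.2%, beside 35.1%). In both replicate lists 10 members had one (23.3%, beside 17%), namely lsm-1, lsm-4, lsm-8, mog-4, prp-9, prp-19, prp-40, rsp-6, snr-1 and snr-4. Within 250 bp of the start this order also turned, to 2.33% beside 5.02%, with only 1 member counted. For the nearest start only the shares were 11.6% and 13.5%. The upper 5000 of the pooled list held regions of 7 members (16.3%), beside 7.8% of all protein-coding genes. The upper 5000 of the replicate 1 list held those of 6 (14%, beside 7.44%) and of the replicate 2 list those of 7 (16.3%, beside 8.12%). The upper 5000 of both replicate lists held only those of mog-4, prp-19 and snr-1 (6.98%, beside 2.25%).

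**Figure D3:**
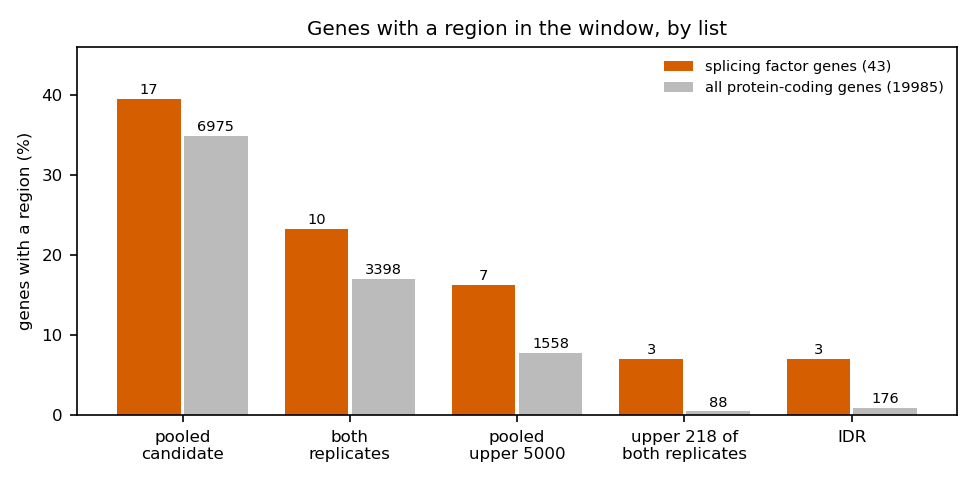
Share of genes (%, axis from 0) with a region in the window, for the 43 splicing factor genes (orange, left) and all 19985 protein-coding genes (grey, right), with the number of genes above each bar. The shares are 39.5% and 34.9% for pooled candidates, and 6.98% and 0.881% for the IDR list. Each orange bar includes mog-4, prp-19 and snr-1, whose regions were known beforehand.

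Among members with a pooled region, the median signal value of the best region was 45.7 (17 genes), against 39.4 over all 6975 protein-coding genes with one. In the replicate 1 list the medians were 23.3 over 18 members and 22.1 over 6792 genes. In the replicate 2 list they were 26.9 over 22 members and 24.6 over 7021 genes. Members without a region have no value and do not enter these medians. The members' medians include mog-4, prp-19 and snr-1, whose high regions were known beforehand. Ordered by signal value among the 6975 genes, mog-4 was at place 10, prp-19 at 13 and snr-1 at 51, and lsm-8 followed at 504.

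**Figure D4:**
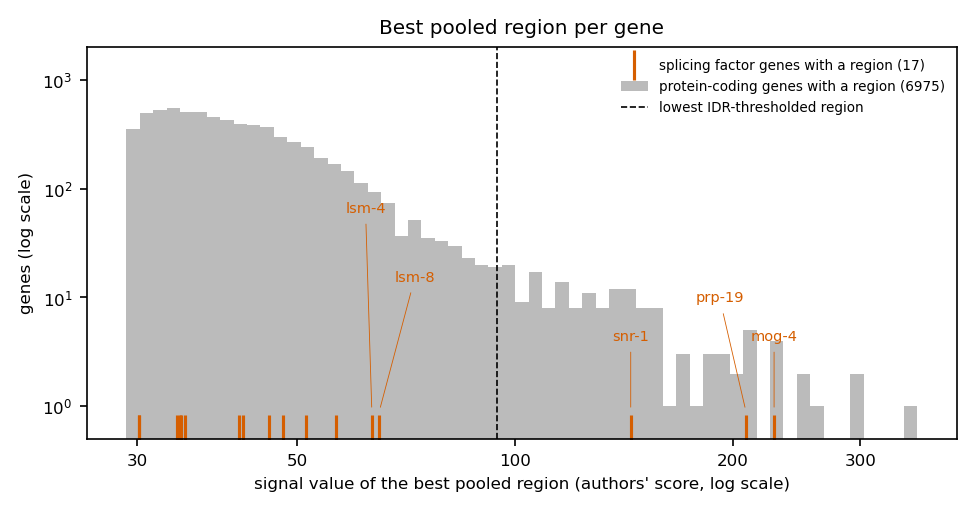
Signal value of the best pooled region (authors' score, log axis) for the 17 splicing factor genes with one (orange ticks) and for all 6975 protein-coding genes with one (grey histogram, log count axis), with a dashed line at 94.4, the lowest IDR-thresholded region. mog-4, prp-19 and snr-1 lie right of the line, and the other 14 members lie at 64.9 or below.

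Each of the 7 lsm- genes, for LSm proteins, had a region in at least 1 candidate list, where 45.5% of all protein-coding genes had none, and no lsm- gene had one in the IDR list. At lsm-8 the best region had a signal value of 64.9 in the pooled list (rank 1118), 24.9 in the replicate 1 list (rank 8462) and 47.7 in the replicate 2 list (rank 427). Replicate 2 was thus high and replicate 1 was not, and the replicate 1 summit was 333 bp from the pooled one. The pooled summit lay 302 bp upstream of lsm-8, in the 3′ UTR of sqd-1. At lsm-4 the best region had a signal value of 63.4 in the pooled list (rank 1279), 22.05 in the replicate 1 list (rank 13240) and 38.2 in the replicate 2 list (rank 1516), so again it was high in replicate 2 alone. Its summit lay 273 bp upstream of lsm-4 in coding sequence of ada-2, whose body overlaps the lsm-4 start. Pooled regions were also listed at lsm-1, lsm-5 and lsm-7, while lsm-3 had a region in the replicate 1 list and lsm-6 in the replicate 2 list.

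Of the 7 Sm genes, snr-1 and snr-4 had a pooled region, beside 34.9% of all protein-coding genes. The gene snr-4 encodes Sm D2, which sits in the same ring. Its best region had a signal value of 56.5 in the pooled list (rank 2519), 36.4 in the replicate 1 list (rank 1208) and 30.3 in the replicate 2 list (rank 5442). Here replicate 1 ranked higher, the reverse of lsm-8 and lsm-4. The window of snr-4 held 2 pooled regions, at 337 and 580 bp upstream, and both summits also lay in the window of an snRNA gene on the other strand, named T11F9.15, whose start was 58 bp from the first. The highest replicate regions lay near the second, at 643 bp upstream in replicate 1 and 583 bp in replicate 2. The replicate 1 list had a region at snr-3 and the replicate 2 list one at snr-7, and no list had one at snr-2, snr-5 or snr-6.

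Among the prp- genes, 5 of 13 had a pooled region, close to the 34.9% of all protein-coding genes. At prp-40, the counterpart of a yeast U1-associated factor, the best region had a signal value of 51.4 in the pooled list (rank 4165), 24.5 in the replicate 1 list (rank 9007) and 27.2 in the replicate 2 list (rank 8837). Its pooled summit lay 546 bp upstream of prp-40 and only 69 bp upstream of clu-1, on the other strand. The replicate 1 summit was 10 bp from it, whereas the replicate 2 list had 2 regions that overlapped the pooled one, with summits 838 bp (rank 8837) and 629 bp (rank 12475) upstream. At prp-9, which resembles a subunit of yeast and human SF3a in the U2 particle, the best region had a signal value of 41.5 in the pooled list (rank 11086), 28.8 in the replicate 1 list (rank 4412) and 24.0 in the replicate 2 list (rank 14018). The 2 replicates did not list the same place there: the replicate 1 summit lay 850 bp upstream, in mrps-18B, and the replicate 2 summit 137 bp downstream, in prp-9 itself. At prp-38, a factor of the tri-snRNP in yeast, the pooled region (34.9, rank 19578) was matched in replicate 1 (16.3, rank 29399) and had no counterpart in replicate 2. The other prp- genes with a region in some list were prp-8, prp-17, prp-21 and prp-31, and those with none were prp-3, prp-4, prp-6, prp-18 and prp-39.

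Apart from mog-4, the mog genes with a pooled region were mog-3, a homolog of the splicing factor CWC25, and mog-5, another putative helicase. At mog-3 the pooled region (45.7, rank 7439), 210 bp upstream, was matched in replicate 1 (31.1, rank 2921) and had none in replicate 2. At mog-5 the pooled region (42.0, rank 10521), 339 bp upstream, was matched in replicate 2 (22.3, rank 17710) and had none in replicate 1. Neither recurred in both replicates, unlike the region at mog-4, which had passed the IDR threshold. The replicate 2 list alone had a region at mog-1, also a putative helicase, and at mog-2, a putative U2 snRNP protein, and no list had one at mog-7.

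None of the SR protein or U2AF genes had a region in the upper 5000 of the pooled list, where 7.8% of all protein-coding genes had one. The 8 rsp- and 2 uaf- genes are too few for this to set them apart. The highest of the 8 rsp- genes in the pooled list was rsp-6. Its best region had a signal value of 47.8 in the pooled list (rank 5949), 25.2 in the replicate 1 list (rank 8150) and 31.8 in the replicate 2 list (rank 4306). Its summit lay 299 bp upstream of the start, with the replicate 1 summit 3 bp and the replicate 2 summit 154 bp away. A pooled region was also listed at rsp-1, which ranked above rsp-6 in the replicate 2 list. The upper 5000 of the replicate 2 list held regions of 2 of the 8 rsp- genes, rsp-1 and rsp-6, beside 8.12% of all protein-coding genes. Replicate 1 regions were listed at rsp-4 and rsp-5, and replicate 2 regions at rsp-3 and rsp-7, while rsp-2 and rsp-8 had none. Both uaf- genes, for the large and small subunits of U2AF, had no region in the window in any list, as did 45.5% of all protein-coding genes.

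In all, 13 of 43 members had no region in any list (30.2%), beside 45.5% of all protein-coding genes. Since the candidate lists stop at 30000 regions, a gene without one is not shown to be free of the tagged protein. Just outside the window, the highest pooled summits were 1196 bp upstream of rsp-7 (signal value 52.0, rank 3922) and 283 bp downstream of prp-40 (51.5, rank 4116). Just inside it, the pooled summits farthest upstream were at rsp-6 (959 bp), prp-9 (810 bp) and lsm-1 (794 bp).

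Many splicing factor genes stand head to head with another gene, and their windows hold the neighbour's upstream region too. A protein-coding gene on the other strand, pointing away, lay within 1000 bp upstream of 24 of 43 members (55.8%), beside 17.2% of all protein-coding genes. It also did so for 85 of the 176 genes with an IDR-thresholded region (48.3%). These 176 genes come from 122 summits, and a summit between head-to-head genes can count for both, which raises this share. Within this arrangement, an IDR-thresholded region was listed at 2 of 24 members (8.33%), prp-19 and snr-1, and at 85 of 3435 protein-coding genes (2.47%). Among genes with no protein-coding neighbour within 1000 bp upstream it was listed at 1 of 7 members, mog-4, and at 44 of 9599 genes (0.458%). With an upstream neighbour on the same strand it was listed at 0 of 9 members, beside 0.756% of such genes. With an overlapping neighbour it was listed at 0 of 3 members, beside 0.359%.

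Distance to other starts shows the same sharing. For 10 of the 17 members with a pooled region (58.8%) the nearest protein-coding start to the best summit was the member's own, beside 83.5% of the 6975 genes. The 7 whose summit was closer to another gene were prp-19, snr-1, prp-40, mog-5, prp-9, rsp-1 and lsm-1. The best pooled summit was intergenic at 8 of the 17 members, in the body of another gene at 7 and in the member itself at 2. When a summit counted only for the gene with the nearest start, mog-4 was the 1 member left in the IDR list, beside 0.59% of all protein-coding genes.

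Base composition varied widely among the members' summits. The 17 best pooled regions had a mean of 37.9% G and C within 50 bp of the summit (SD 11.4). They ranged from 15.8% at snr-1 to 54.5% at lsm-1, where the summit lay in coding sequence of rps-9. Of the 17, 5 held at least 1 of the 5 motifs on either strand (29.4%), beside 7.93% of all pooled regions and 39% of the IDR-thresholded ones. GGCCGA was found at prp-19 and prp-9, GTACAC at mog-4 and lsm-1, ACACGC at lsm-1, CGGCCA at prp-19 and GGCCTA at mog-3. At prp-9, as at lsm-1, the summit lay in coding sequence of another gene, here mrps-18B. GGCCGA and CGGCCA can overlap, as can GTACAC and ACACGC, so matches at one gene need not be separate. At prp-19 the CGGCCA match lay within 50 bp of the summit. It is not inside the prp-19 stretch shown above, which is shifted by 42 bp and holds the GGCCGA match alone. Over all pooled regions the shares were 1.67% for GGCCGA, 1.71% for ACACGC, 1.75% for CGGCCA, 2.62% for GTACAC and 1.67% for GGCCTA, and over the IDR-thresholded regions they were 16.1, 13.3, 14.7, 12.8 and 11%. The mog-4 and prp-19 regions are themselves part of the IDR-thresholded set.

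For contrast with the 3 genes, the 101 bases at the pooled summits of mog-3 and prp-40, which had no IDR-thresholded region, are given in the same way. The mog-3 stretch is chrIII:5308336-5308436 (plus strand) and the prp-40 stretch chrIII:9521479-9521579 (plus strand).
mog-3: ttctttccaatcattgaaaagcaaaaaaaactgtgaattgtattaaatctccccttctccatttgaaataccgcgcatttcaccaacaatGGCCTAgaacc
prp-40: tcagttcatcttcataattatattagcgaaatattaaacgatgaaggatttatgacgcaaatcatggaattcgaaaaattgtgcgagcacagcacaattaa
The mog-3 stretch held GGCCTA as written, and the prp-40 stretch held none of the 5 motifs. Stretches taken in the same way at rsp-6, mog-5 and lsm-5, also without an IDR-thresholded region and not shown, held none either. Among the stretches shown, snr-1, at rank 64, held no match, and mog-3, at rank 7439, held one.

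**Figure D5:**
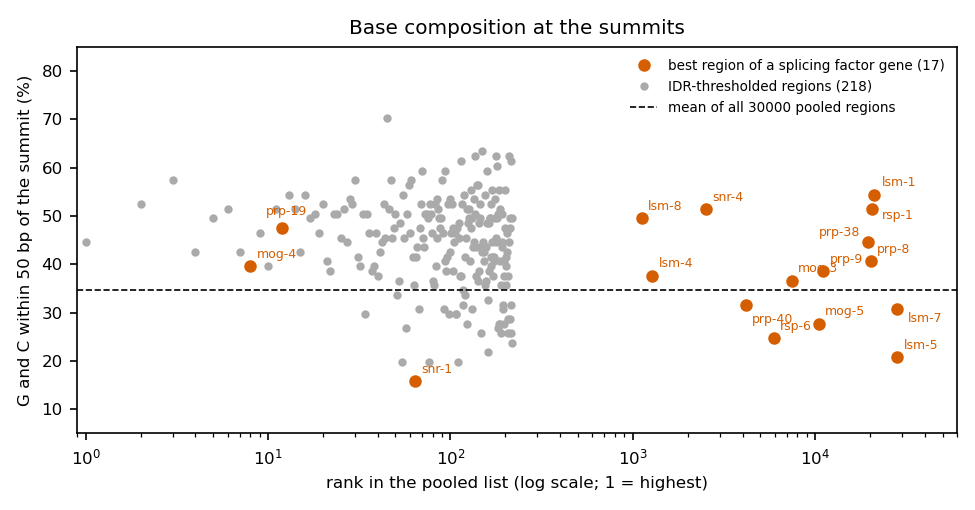
G and C content within 50 bp of the summit (%) against rank in the pooled list (log axis) for the best regions of 17 splicing factor genes (orange, named) and the 218 IDR-thresholded regions (grey), with a dashed line at the mean of all pooled regions, 34.7%. The snr-1 region, at 15.8%, is the lowest of the 218, and mog-4 and prp-19 lie above the dashed line.

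Other splicing genes, whose names fall outside the rule, were read from a list of 104 names, of which 85 were found in the annotation. Of the 85, 1 had an IDR-thresholded region (1.18%, beside 0.881% of all protein-coding genes) and 27 had a pooled candidate (31.8%, beside 34.9%). The 1 gene was cyn-10, of the cyclophilin family of peptidyl-prolyl isomerases. Its region had a signal value of 139 in the pooled list (rank 71), 68.0 in the replicate 1 list (rank 76) and 69.6 in the replicate 2 list (rank 108), with the pooled summit 107 bp upstream. It was thus close to snr-1 in the pooled list (rank 64), above it in the replicate 1 list (rank 122) and below it in the replicate 2 list (rank 50). Next came plrg-1, whose yeast counterpart belongs to the Prp19 complex, at rank 909 of the pooled list (67.1), rank 3116 of the replicate 1 list and rank 5113 of the replicate 2 list. Of the 21 genes of the Prp19 complex and step factors, 1 had an IDR-thresholded region, and 0 did among 3 genes of the U1 particle, 8 of the U2 particle, 10 of U5 and the tri-snRNP, 4 of the exon junction complex, 27 splicing kinases and regulators, and 12 of snRNP assembly and trans-splicing.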

How the data were processed

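Chromatin of 2 biological replicates of ccch-3 GFP worms was analysed from peak lists on assembly ce11, which per the labels share one control alignment. What the control was, how reads were aligned, which caller was run and which IDR threshold applied is not given in the sources used here. As to units, the signal value is the authors' deposited score of each region, and pooled lists carry no replicate error. The deposited q-value of each region, stored as −log10, is the caller's own. Gene starts came from Ensembl release 115 and products from RefSeq, both on WBcel235, and chromosome lengths fit the regions.

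Summits were placed as region start plus offset. They were assigned to every gene whose window held them, with Python 3.11.15 and pandas 2.3.3, and the assignment was tested on simulated data. The genes named with values were mog-4, prp-19 and snr-1, members in the IDR list or the upper 5000 of the pooled list, the highest of each name family, the next 5 members, and genes sharing those regions. The members and lists were chosen with earlier results of these data known, so no set test was run. Alternatives were other windows, transcript starts, nearest start only, region overlap, stricter lists and each replicate alone.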

Additional observations from a re-analysis of the deposited data

How the results depend on the processing

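Of the 30 alternative counts, 17 stayed within 1.5 times the reported count. With 250 bp on either side of the start, 0 members had an IDR-thresholded region (0.415% of all protein-coding genes). A pooled region was found at 4 (9.3%, beside 16.3%). In both replicate lists 1 member had a region (2.33%, beside 5.02%), and in the upper 5000 of the pooled list 0 did (beside 3.32%). Counts of 0 and 1 are too small to set members apart from all genes. The IDR-thresholded summits at mog-4, prp-19 and snr-1 all lie more than 250 bp upstream, so this window leaves them out. With a summit given only to the nearest start, the counts in the same order of lists were 1 (2.33%, beside 0.59%), 10 (23.3%, beside 29.6%), 5 (11.6%, beside 13.5%) and 4 (9.3%, beside 6.38%). The order of the shares turned for pooled regions and for both replicates. With 2000 bp upstream to 500 bp downstream, 19 members had a region in both replicate lists (44.2%, beside 37.3%) and 12 one in the upper 5000 (27.9%, beside 13.5%), and the pooled shares were 55.8% and 55.9%. Stricter lists left 7 members in the upper 5000 pooled candidates (16.3%, beside 7.8%), 3 in the upper 5000 of both replicate lists (6.98%, beside 2.25%) and 3 in the upper 1000 pooled regions (6.98%, beside 461 of 19985 genes). Wider or narrower windows and stricter lists change these counts by construction. Leaving out a replicate gave 3 to 3 members at the 218 highest regions, 18 to 22 with a candidate and 6 to 7 in the upper 5000. For the rank of the best region, leaving out a replicate gave 14 to 21 at mog-4, 5 to 47 at prp-19 and 50 to 122 at snr-1. Over nuclear regions of replicate 1 alone, a setting chosen after seeing the data, the ranks were 2, 33 and 106. No paired analysis was possible because the labels give a single group. Summits closer together than the sonicated fragments, of 200 to 800 bp, are not resolved.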

Other observations

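Some regions near splicing factor genes lay outside the window and were picked after their values were seen. At snr-6, which encodes the Sm protein E and has an annotated length of 458 bp, all 3 candidate lists had a region just past the far end of the gene. The summit lay 473 bp downstream of the start in the pooled list (rank 3008), 481 bp in the replicate 1 list (rank 1551) and 471 bp in the replicate 2 list (rank 21610).

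The SR protein genes rsp-1 and rsp-2 stand head to head with 407 bp between their starts, and a region in the body of rsp-2 fell in the window of rsp-1 alone. It had rank 20487 in the pooled list and rank 1734 in the replicate 2 list, and the replicate 1 list had no region that overlapped it. The SR gene rsp-5 and the Sm gene snr-3 likewise stand head to head, 404 bp apart, and shared a single replicate 1 region of rank 15748.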
